A study of Gallus gallus with 6 samples.

Results

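Transcripts of fatty acid oxidation and of the peroxisome proliferator-activated receptors (PPARs) were examined in RNA-seq libraries of cells sorted from the ileum of broiler chickens with KUL01, an antibody used to label chicken macrophages. The genes were chosen by name: PPAR factors, acyl-CoA synthesis, mitochondrial and peroxisomal beta oxidation, and ketogenesis. Of 33 names, 30 matched a row of the table of 27656 genes, and all 30 passed the filter on low counts. ACADVL, ACADM and ETFB were not analysed here. The list was drawn up with results of the comparison below already known, so the counts of its members describe these libraries and carry no independent support.

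The LPS+LR21 group had 3 libraries from birds that received an injection of lipopolysaccharide (LPS), the endotoxin of Gram-negative bacteria, and were gavaged with Lactobacillus reuteri, labelled LR21. The LPS group had 3 libraries from birds given LPS without the bacterium. Both groups therefore carry the LPS challenge, and no library of unchallenged birds was analysed here. Age, sex and the number of birds behind a library are not given in the sources used here. The LPS+LR21 libraries are called by their column names, LR1_2, LR3 and LR4, since these could not be tied to single sample labels, and whether LR1_2 is a pool of birds is not stated. The comparison asks how the sorted ileal cells of LPS-challenged birds differed when the bacterium was given.

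Beta oxidation shortens fatty acids, once they are activated to acyl-CoA, by repeating a dehydrogenation, a hydration, a further dehydrogenation and a thiolytic cleavage. Mitochondria receive long-chain acyl groups through the carnitine shuttle and pass the electrons to the respiratory chain through the electron transfer flavoprotein, whereas peroxisomes handle very long and branched chains with oxidases of their own. In mammals the PPARs are lipid-sensing nuclear receptors that bind DNA together with retinoid X receptors. PPARA drives oxidation genes in liver and in the absorptive epithelium of the gut, while PPARG and PPARD are known regulators of lipid handling in macrophages.

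SLC27A2, an acyl-CoA synthetase of very-long-chain fatty acids, was the 1 member of 30 that rose in the LPS+LR21 libraries, while no member fell. The test was the quasi-likelihood test of edgeR, adjusted over 20745 genes by the Benjamini-Hochberg method, with a threshold of 0.05. Over all tested genes 0.974% were called higher and 0.0819% lower, 1.06% together. The enzymes of the mitochondrial and peroxisomal spirals had higher values in LPS+LR21 without passing. So did PPARA, while PPARD, PPARG, the acyl-CoA synthetase gene ACSL1 and the lipid droplet gene PLIN2 had fitted values below 0. In all, 23 members were fitted above 0 and 7 below it, against 43.5% of all tested genes above 0. The members' median log2 fold change (LPS+LR21 over LPS) was 0.70, against -0.14 over all tested genes. For 20 members every LPS+LR21 library lay above every LPS library, which held for 12.3% of all tested genes, and for none did the groups separate the other way (7.1% of all tested genes). At an unadjusted p under 0.05 there were 14 members, against 12.1% of all tested genes.

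**Figure D1:**
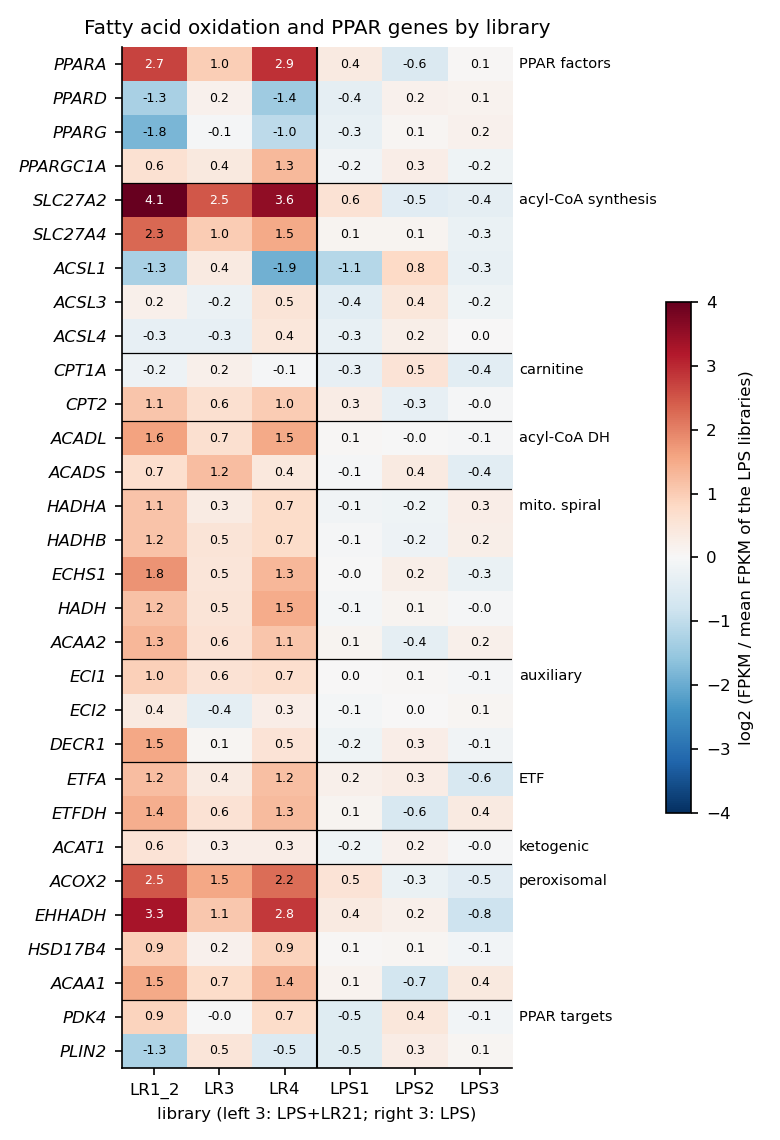
Level of the 30 genes (rows, grouped by role) in the 6 libraries (columns, LPS+LR21 left of the line, LPS right of it), coloured and printed as log2 of FPKM over the gene's mean in the LPS libraries. The spiral and peroxisomal genes are red in LR1_2 and LR4 and, except for ACADS, paler in LR3, whereas PPARD, PPARG, ACSL1 and PLIN2 are blue in LR1_2 and LR4 and close to or above the LPS mean in LR3.

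The libraries held 31284679 to 45492503 counts, and the lowest count of any member in any library was 296. Levels are given in FPKM, fragments per kilobase scaled to the library, which allows genes to be compared with each other. LR3 stood apart within its group. It had 18811 genes with a count, against 22493 to 24539 in the other 5 libraries. The chi-square per degree of freedom between libraries was 138 to 195 for LR3 with the LPS libraries, but 444 with LR1_2 and 291 with LR4. For 28 of the 30 members LR3 lay outside the interval between LR1_2 and LR4, and for 22 it was the lowest of the LPS+LR21 libraries. Over all tested genes LR3 lay below both in 50.6% and above both in 25.9%. LR3 lay inside the LPS range for 6 members (37.7% of all tested genes). Set against the LPS mean of each gene, the median log2 level of the members reached 1.13 in LR1_2 and 0.82 in LR4, but 0.49 in LR3.

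Markers of epithelial cells and of macrophages moved with the groups. Of 41 measured epithelial markers 11 rose and none fell (0.974% and 0.0819% of all tested genes), and 3 were fitted below 0. Their median log2 fold change was 2.16, and 26 had groups separated upward (12.3% of all tested genes). The summed levels of the 41 were 13569.6, 2728.9 and 8017.8 FPKM in LR1_2, LR3 and LR4, against 1714.2, 1122.8 and 1034.5 in LPS1, LPS2 and LPS3. EPCAM, the epithelial adhesion molecule, had 698, 201 and 617 FPKM in LR1_2, LR3 and LR4, against 102, 71.1 and 72.0 in the LPS libraries. No epithelial marker was at 0 in every library. Of 24 tested macrophage markers 1 fell and none rose (0.0819% and 0.974% of all tested genes). All 24 were fitted below 0, with a median log2 fold change of -1.31, against -0.14 over all tested genes. The groups were separated downward in 17 of them (7.1% of all tested genes). Summed levels of the macrophage markers were 4540.2, 10023.7 and 5457.3 FPKM in LR1_2, LR3 and LR4, against 15981.8, 12554.6 and 14012.6 in the LPS libraries. The myeloid factor SPI1 had 64.4 to 279 FPKM in LPS+LR21 and 301 to 338 in LPS. CSF1R, another of the macrophage markers, had 58.5 to 163.2 FPKM in LPS+LR21 and 283.4 to 344.8 in LPS. Transcripts of the macrophage list were thus present in all 6 libraries, beside epithelial ones. Summed T and NK cell markers were at 328 to 491 FPKM in LPS+LR21 and 140.1 to 185 in LPS. Fibroblast and smooth muscle markers were at 14.4 to 21.8 and 34.3 to 55.6 FPKM in the same order, and hepatocyte markers at 5.10 to 7.47 and 3.47 to 5.06. B and plasma cell markers overlapped between the groups, at 73.6 to 97.5 FPKM in LPS+LR21 and 93.5 to 110.7 in LPS. No T and NK, B and plasma or hepatocyte marker was called, and 2 of 10 tested fibroblast and smooth muscle markers fell. The library order of the epithelial markers, LR1_2 above LR4 above LR3, was also that of most members. Among these were SLC27A2, EHHADH, ACOX2, ACADL, ECHS1, HADHB, ACAA2, ETFDH and PDK4. The share of all tested genes in this order was not computed. Not every member followed it: PPARA and HADH were highest in LR4, and ACADS and PLIN2 in LR3. These orders were read from levels scaled by column totals. A small margin, such as that of PPARA between LR1_2 and LR4, can depend on the scaling. The part of these cells in the values below was not tested. In bulk RNA, more cells of a type and more RNA per cell cannot be told apart.

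**Figure D2:**
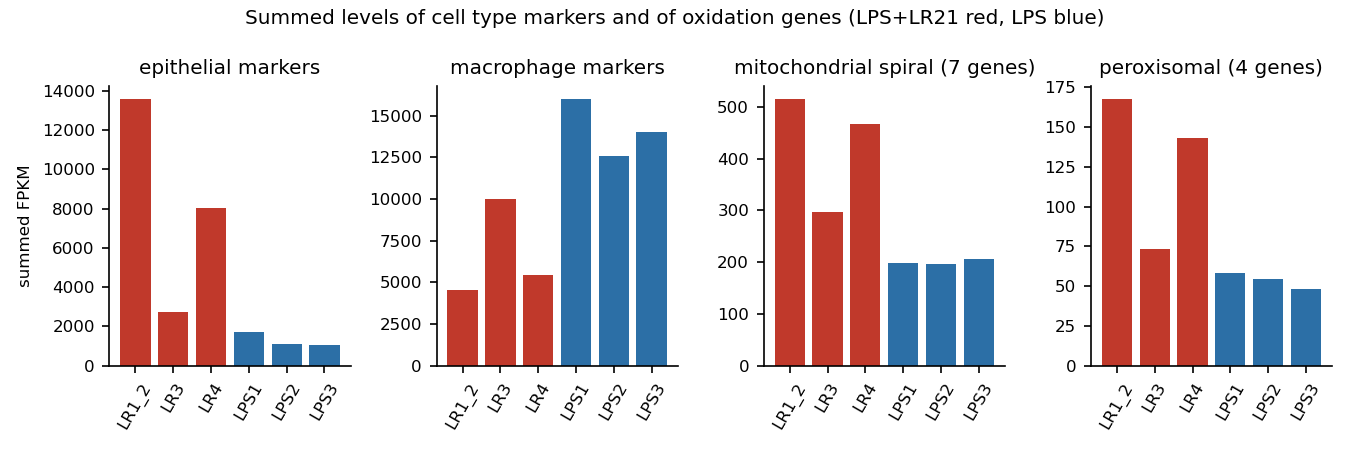
Summed FPKM in each library (bars, LPS+LR21 red at left, LPS blue at right, 1 library a bar) of the epithelial markers, the macrophage markers, the 7 mitochondrial spiral genes and the 4 peroxisomal genes. The oxidation genes and the epithelial markers are lowest in the LPS libraries and, among LPS+LR21, in LR3, and the macrophage markers run the other way.

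The 3 PPAR receptor genes were not fitted in the same direction, and none passed in the main edgeR test over 20745 genes. With all 6 libraries PPARA was called higher by DESeq2, by limma-voom with library quality weights and by edgeR under a 5 FPKM filter. In these fits 4.83%, 5.11% and 6.78% of all tested genes were called higher. Limma-voom with those weights also called PPARD and PPARG lower (4.32% of all tested genes). PPARA (ENSGALG00010023058, chromosome 1, 71319312 to 71353475, plus strand; coordinates here are as the deposited table lists them) had 25.3, 7.69 and 29.3 FPKM in LR1_2, LR3 and LR4, against 5.00, 2.56 and 4.03 in LPS1, LPS2 and LPS3. All LPS+LR21 libraries were above all LPS libraries, LR3 by the least. Its log2 fold change was 2.23 ± 0.48 (SE, n = 3 each) and did not pass (edgeR's quasi-likelihood test, adjusted p = 0.0647). PPARD (chromosome 26, 4128549 to 4146643, minus strand), the most widely expressed receptor of the family in mammals, had 18.9, 52.4 and 17.5 FPKM in LR1_2, LR3 and LR4, against 36.5, 52.3 and 51.2 in the LPS libraries. The groups overlapped, because LR3 was at the level of LPS2 and LPS3. The fitted value was -0.73 ± 0.48 (adjusted p = 0.678). PPARG (chromosome 12, 5019499 to 5074059, plus strand), known in mammals from fat cells and lipid-laden macrophages, had 6.15, 21.0 and 10.7 FPKM in LR1_2, LR3 and LR4, against 18.0, 23.1 and 24.6 in the LPS libraries. Only LR1_2 and LR4 were below the LPS range, and the fitted value was -0.89 ± 0.46 (adjusted p = 0.514). Without LR3 both were called lower, PPARD at -1.45 (adjusted p = 0.0197) and PPARG at -1.53 (adjusted p = 0.0139). PPARA was then called higher at 2.70 (adjusted p = 0.00214). In that fit 3.82% of all tested genes were called lower and 4.83% higher. Without LR1_2 the values of PPARD, PPARG and PPARA were -0.46, -0.54 and 1.99. Without LR4 they were -0.35, -0.65 and 2.13. None of these was called, but no gene of the table was called in either fit.

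The summed level of the 3 receptors overlapped between the groups. So did the share of PPARD in it, while the shares of PPARA and PPARG did not. It was 50.3, 81.1 and 57.5 FPKM in LR1_2, LR3 and LR4, and 59.5, 78.0 and 79.8 in the LPS libraries. PPARA made up 50.2% of that sum in LR1_2, 9.48% in LR3 and 51.0% in LR4, against 8.41%, 3.28% and 5.05% in LPS1, LPS2 and LPS3. PPARD made up 37.6%, 64.6% and 30.4% in the LPS+LR21 libraries, against 61.4%, 67.1% and 64.1% in the LPS libraries, with LR3 inside the LPS range. PPARG made up 12.2%, 25.9% and 18.6% in the LPS+LR21 libraries and 29.6% to 30.8% in the LPS libraries. Its share was thus nearly constant among the LPS libraries and lower in all of LPS+LR21. PPARGC1A, a coactivator that works with PPARA in mammals, was the least abundant member, at 1.86, 1.59 and 3.01 FPKM in LR1_2, LR3 and LR4, against 1.09, 1.47 and 1.08 in the LPS libraries. Its groups did not overlap, but the difference of 0.66 ± 0.36 did not pass (adjusted p = 0.543).

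**Figure D3:**
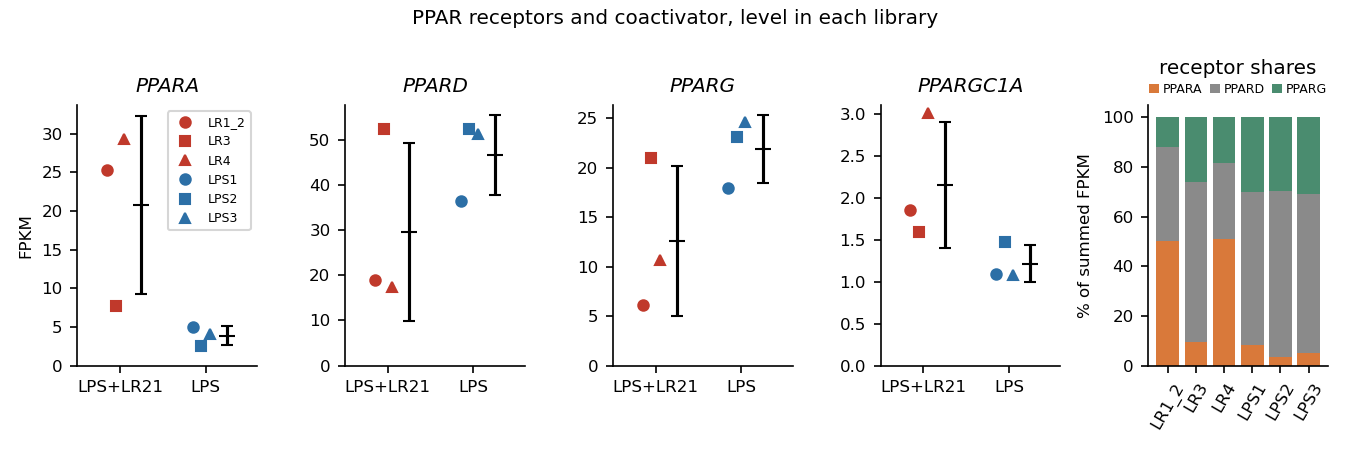
FPKM of the PPAR receptor genes and PPARGC1A in each library (coloured points, LPS+LR21 left of LPS, with mean and SD of 3 libraries in black), and the share of each receptor in their summed FPKM by library (stacked bars). PPARA takes 50.2% and 51.0% of the sum in LR1_2 and LR4 and at most 9.48% in the other libraries.

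Among the genes for fatty acid uptake and activation, 2 had groups separated upward (12.3% of all tested genes) and 3 had overlapping groups. SLC27A2 (ENSGALG00010005259, chromosome 31, 1371838 to 1379513, minus strand) had 143.7, 47.6 and 101.2 FPKM in LR1_2, LR3 and LR4, against 12.8, 6.21 and 6.69 in LPS1, LPS2 and LPS3. All LPS+LR21 libraries were well above all LPS libraries, and LPS1 was the highest of the LPS libraries, as it was for the summed epithelial and macrophage markers alike. The gene rose by 3.35 ± 0.48 on the log2 scale (SE, n = 3 each, edgeR's quasi-likelihood test, adjusted p = 0.0373). By mean level it ranked 3 of the 30 members in LPS+LR21, against 19 in LPS. The call in edgeR's test was lost without LPS1 (adjusted p = 0.121), LPS2 (0.225), LPS3 (0.225), LR1_2 (0.123) or LR4 (0.174), and with upper-quartile scaling (0.055). No gene of the table was called in those settings. The log2 fold change of SLC27A2 stayed between 2.91 and 3.78 over all 13 alternatives. SLC27A2 shares 2968 bases with THAP8 on the opposite strand, whose own log2 fold change was 0.59 (adjusted p = 0.515). Whether the counting used strand is not given, so reads of the shared stretch are uncertain.

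SLC27A4, a fatty acid transport protein of the gut in mammals (chromosome 17, 5647522 to 5656949, minus strand), had 16.0, 6.56 and 9.20 FPKM in LR1_2, LR3 and LR4, against 3.47, 3.52 and 2.70 in the LPS libraries. The groups did not overlap, and the difference of 1.58 ± 0.38 did not pass (adjusted p = 0.0871). ACSL1 (chromosome 4, 39007842 to 39044792, plus strand), a long-chain acyl-CoA synthetase induced in activated macrophages of mice, had 40.9, 130.4 and 26.7 FPKM in LR1_2, LR3 and LR4, against 45.6, 175.3 and 82.5 in the LPS libraries. Its spread within each group exceeded the difference between them (-0.65 ± 0.67, adjusted p = 0.850). ACSL3, a synthetase tied to lipid droplets, and ACSL4, which prefers arachidonic acid, had 2.86 to 4.81 and 10.7 to 18.4 FPKM in LPS+LR21, against 2.53 to 4.61 and 11.0 to 16.1 in LPS. Both overlapped between the groups, with fitted values of 0.04 ± 0.34 and -0.19 ± 0.29. ACSL3 turned below 0 with upper-quartile scaling. Within a library, the ratio of SLC27A2 to ACSL1 was 3.51, 0.365 and 3.78 in LR1_2, LR3 and LR4, against 0.281, 0.0354 and 0.0811 in the LPS libraries.

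Neither carnitine shuttle member passed. Of 5 other measured genes of the shuttle none was called, and 3 had groups separated upward (12.3% of all tested genes). CPT1A, the entry step that couples long-chain acyl groups to carnitine (chromosome 5, 16197968 to 16234024, minus strand), had 8.73, 11.6 and 9.72 FPKM in LR1_2, LR3 and LR4, against 8.14, 14.8 and 7.51 in LPS1, LPS2 and LPS3. The LPS+LR21 values lay wholly inside the LPS range (-0.13 ± 0.34, adjusted p = 0.956). CPT2, which returns the acyl group to CoA inside the mitochondrion, had 10.6, 7.59 and 9.86 FPKM in LR1_2, LR3 and LR4, against 6.00, 3.91 and 4.71 in the LPS libraries. These groups did not overlap, and the difference of 0.80 ± 0.30 did not pass (adjusted p = 0.297). The ratio of CPT1A to CPT2 within a library overlapped, at 0.820, 1.52 and 0.986 in LR1_2, LR3 and LR4, against 1.36, 3.80 and 1.59 in the LPS libraries. CPT2 shares 2328 bases with a gene on the opposite strand.

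All 7 measured members of the mitochondrial spiral had higher FPKM in every LPS+LR21 library than in any LPS library, and none passed. Such a separation held for 12.3% of all tested genes. It also held for 5 of 10 other measured genes of the spiral and acyl-CoA breakdown. The 7 members summed to 514.4, 296.0 and 466.1 FPKM in LR1_2, LR3 and LR4, against 197, 196.7 and 205 in the LPS libraries. ACADL, an acyl-CoA dehydrogenase of long chains (ENSGALG00010011424, chromosome 7, 2823739 to 2837945, minus strand), had 129, 66.2 and 121 FPKM in LR1_2, LR3 and LR4, against 43.7, 41.9 and 40.6 in the LPS libraries. LPS libraries were within a narrow band, and the difference was 1.17 ± 0.31 (adjusted p = 0.117). ACADS, the short-chain dehydrogenase, had 11.0, 16.1 and 9.16 FPKM in LR1_2, LR3 and LR4, against 6.60, 8.87 and 5.10 in the LPS libraries. It was unusual among the spiral genes in being highest in LR3 (0.72 ± 0.36, adjusted p = 0.495). Its LR4 value was only just above that of LPS2, and this small margin depends on the scaling between libraries.

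The later steps of the spiral followed ACADL. ECHS1, the short-chain enoyl-CoA hydratase (chromosome 6, 10091608 to 10093540, minus strand), had 85.7, 35.1 and 62.9 FPKM in LR1_2, LR3 and LR4, against 24.8, 29.2 and 20.7 in LPS1, LPS2 and LPS3 (1.16 ± 0.35, adjusted p = 0.173). HADH, the hydroxyacyl-CoA dehydrogenase of short and medium chains (chromosome 4, 37513333 to 37533346, minus strand), had 100.3, 62.5 and 124 FPKM in LR1_2, LR3 and LR4, against 41.4, 48.0 and 43.1 in the LPS libraries (0.95 ± 0.30, adjusted p = 0.202). ACAA2, the thiolase that ends the cycle, had 66.5, 39.9 and 57.4 FPKM in LR1_2, LR3 and LR4, against 28.6, 20.8 and 30.9 in the LPS libraries (0.88 ± 0.31, adjusted p = 0.257). In each of these genes LR3 was the LPS+LR21 library nearest to LPS.

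HADHA and HADHB encode the subunits of the mitochondrial trifunctional protein, which carries out the last steps on long chains. They lie head to head on chromosome 3, HADHA on the minus strand (104751605 to 104775923) and HADHB on the plus strand (104775934 to 104787938), with 10 bases between them. HADHA had 36.5, 20.8 and 28.0 FPKM in LR1_2, LR3 and LR4, against 15.2, 14.8 and 20.0 in the LPS libraries. HADHB had 85.3, 55.3 and 63.1 FPKM in the same LPS+LR21 libraries, against 36.8, 33.1 and 45.0 in the LPS libraries. The log2 fold changes were 0.63 ± 0.31 and 0.69 ± 0.31, neither of which passed. The ratio of HADHA to HADHB within a library was nearly the same in all 6, at 0.428, 0.377 and 0.444 in LR1_2, LR3 and LR4 and 0.412, 0.446 and 0.445 in LPS1, LPS2 and LPS3.

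Auxiliary enzymes for unsaturated fatty acids were mixed. ECI1, a mitochondrial enoyl-CoA isomerase, had 58.7, 44.6 and 47.6 FPKM in LR1_2, LR3 and LR4, against 30.2, 31.1 and 28.8 in LPS1, LPS2 and LPS3, with no overlap (0.61 ± 0.27, adjusted p = 0.412). DECR1, the dienoyl-CoA reductase, had 44.2, 16.0 and 22.3 FPKM in LR1_2, LR3 and LR4, against 13.5, 18.5 and 13.8 in the LPS libraries. LR3 lay inside the LPS range, and LR1_2 carried most of the difference (0.72 ± 0.39, adjusted p = 0.556), which was 0.16 without LR1_2. ECI2, an isomerase found in both organelles in mammals, had 7.92, 4.72 and 7.42 FPKM in LR1_2, LR3 and LR4, against 5.86, 6.17 and 6.46 in the LPS libraries. Its fitted value of -0.03 ± 0.29 turned above 0 with library totals, with DESeq2's size factors and in 5 further settings.

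ETFA, a subunit of the electron transfer flavoprotein, had 21.7, 11.8 and 21.0 FPKM in LR1_2, LR3 and LR4, against 10.5, 11.2 and 5.93 in LPS1, LPS2 and LPS3 (0.84 ± 0.34, adjusted p = 0.346). ETFDH, which hands its electrons to ubiquinone, had 13.7, 7.44 and 12.1 FPKM in LR1_2, LR3 and LR4, against 5.39, 3.24 and 6.46 in the LPS libraries (0.98 ± 0.36, adjusted p = 0.284). For both, LR3 was only just above the highest LPS library. The 2 genes overlap others on the opposite strand, ETFA sharing 15833 bases with TMEM266 and ETFDH 1841 bases with PPID. ACAT1, the thiolase that starts ketogenesis, had 16.3, 13.2 and 13.2 FPKM in LR1_2, LR3 and LR4, against 9.89, 12.6 and 10.8 in the LPS libraries. It was close to level between the groups (0.24 ± 0.28, adjusted p = 0.881).

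The peroxisomal genes had the widest differences of any role, with a median log2 fold change of 1.54 over 4 genes and none past the threshold. EHHADH, the bifunctional enzyme that is a classical PPARA target in rodents (ENSGALG00010024516, chromosome 9, 3212333 to 3235839, minus strand), had 63.1, 13.3 and 45.4 FPKM in LR1_2, LR3 and LR4, against 8.15, 7.34 and 3.61 in LPS1, LPS2 and LPS3. Its groups did not overlap, and the difference was 2.52 ± 0.54 (SE, n = 3 each, edgeR's quasi-likelihood test, adjusted p = 0.0640). ACOX2, the oxidase of branched chains and bile acid intermediates (chromosome 12, 12022269 to 12036976, minus strand), had 14.0, 7.20 and 11.8 FPKM in LR1_2, LR3 and LR4, against 3.60, 2.05 and 1.80 in the LPS libraries. At 2.00 ± 0.40 it was the member nearest to the threshold without passing it (adjusted p = 0.0555). It shares 2130 bases with KCTD6 on the opposite strand, whose fitted value was -0.75. HSD17B4, the bifunctional enzyme of the branched-chain route (chromosome Z, 72086626 to 72142780, minus strand), had 78.4, 46.1 and 75.5 FPKM in LR1_2, LR3 and LR4, against 42.3, 42.7 and 37.5 in the LPS libraries (0.56 ± 0.29, adjusted p = 0.521). ACAA1, the peroxisomal thiolase, had 11.8, 6.88 and 10.6 FPKM in LR1_2, LR3 and LR4, against 4.50, 2.49 and 5.35 in the LPS libraries (1.09 ± 0.38, adjusted p = 0.250).

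The bifunctional enzymes of the peroxisome differed in proportion to each other between the groups. EHHADH stood at 0.805, 0.289 and 0.601 of the HSD17B4 level in LR1_2, LR3 and LR4, against 0.193, 0.172 and 0.0961 in LPS1, LPS2 and LPS3. The ratio of the summed peroxisomal to the summed mitochondrial spiral genes overlapped, at 0.325, 0.248 and 0.308 in LR1_2, LR3 and LR4 and 0.297, 0.278 and 0.235 in the LPS libraries. These within-library ratios do not depend on the scaling between libraries, and they were chosen after values had been seen.

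**Figure D4:**
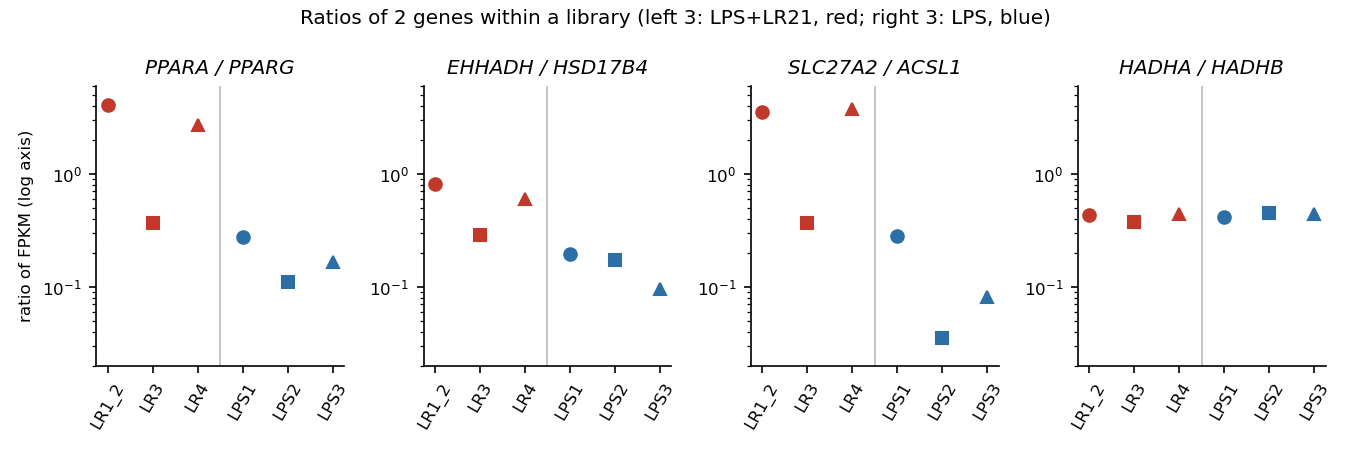
Ratio of FPKM of 2 genes within each library (log axis; LPS+LR21 red at left, LPS blue at right, 1 point a library). PPARA to PPARG, EHHADH to HSD17B4 and SLC27A2 to ACSL1 are higher in every LPS+LR21 library, with LR3 closest to LPS, while HADHA to HADHB lies between 0.377 and 0.446 in all 6.

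PDK4 and PLIN2, PPAR targets outside the spiral, were among the most abundant members and overlapped between the groups. PDK4, a kinase that restrains pyruvate oxidation (chromosome 2, 23808745 to 23818240, minus strand), had 115.7, 62.4 and 104.2 FPKM in LR1_2, LR3 and LR4, against 44.4, 85.0 and 58.4 in LPS1, LPS2 and LPS3 (0.45 ± 0.35, adjusted p = 0.749). PLIN2, the coat protein of lipid droplets and the most abundant member in both groups (chromosome Z, 34056390 to 34070557, minus strand), had 82.7, 279.6 and 136.6 FPKM in LR1_2, LR3 and LR4, against 143.8, 242.5 and 212 in the LPS libraries. LR3 was the highest of all 6 and LR1_2 and LR4 were below all LPS libraries (-0.35 ± 0.49, adjusted p = 0.902). LR1_2 and LR4 were both below the LPS range for 4 members, PPARD, PPARG, ACSL1 and PLIN2, which held for 13.9% of all tested genes. They were both above it for 23 members (22.4% of all tested genes).

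**Figure D5:**
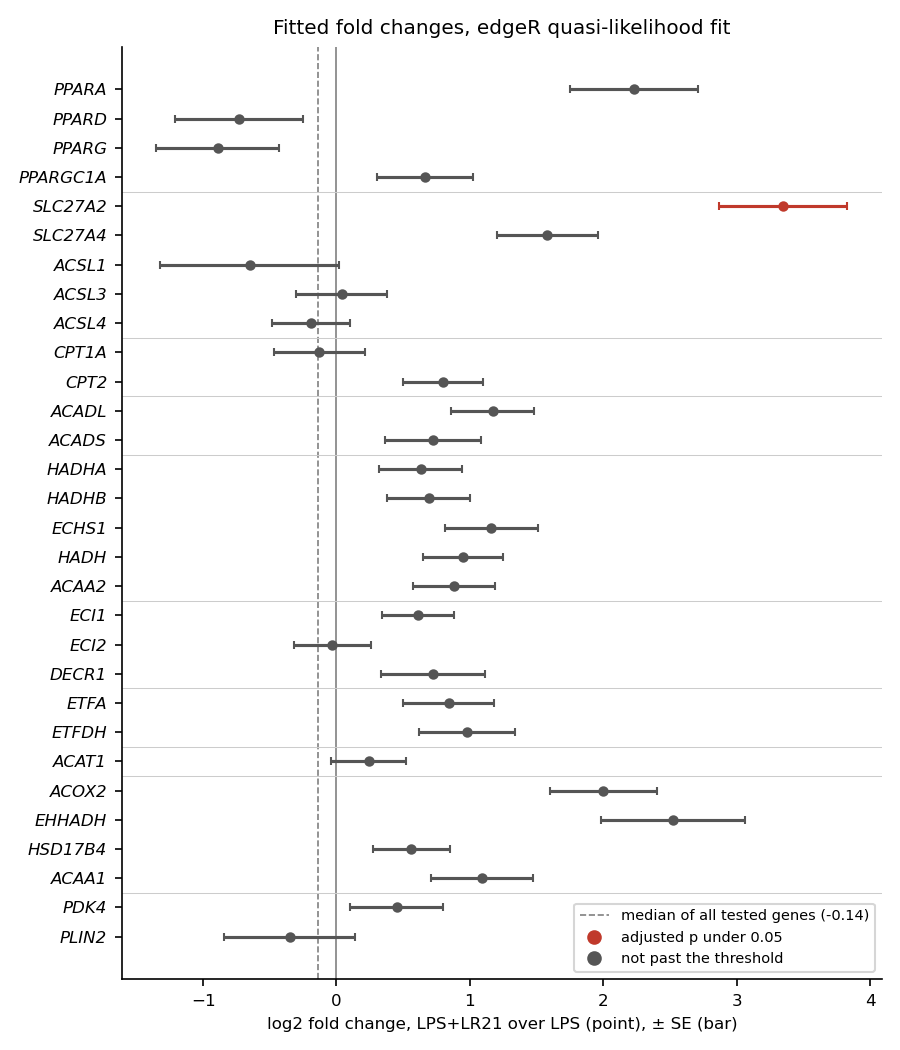
Log2 fold change, LPS+LR21 over LPS, of the 30 genes in order of role (points, bars ± SE, 3 libraries a group), with the median of all tested genes (-0.14) as a dashed line. SLC27A2 at 3.35 is the gene past the threshold, and EHHADH at 2.52, PPARA at 2.23 and ACOX2 at 2.00 come next without passing.

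How many members passed depended on the fit and on the libraries kept. Without LR3, 8 members were called higher (4.83% of all tested genes) and PPARD and PPARG lower (3.82%). The 8 were PPARA, SLC27A2, SLC27A4, ACADL, ECHS1, HADH, ACOX2 and EHHADH. DESeq2, with all 6 libraries, called the same 8 genes higher (4.83%) and none lower (1.73%). Limma-voom with library quality weights called these 8 and ACAA2, ETFDH and ACAA1 higher (5.11%), and PPARD and PPARG lower (4.32%). A filter at a mean of 5 FPKM in the higher of the 2 groups left 5 members called higher. They were PPARA, SLC27A2, SLC27A4, ACOX2 and EHHADH (6.78% higher and 2.09% lower over the genes then tested). PPARA, SLC27A4 and ACOX2 passed that filter only through LPS+LR21, with LPS means of 3.86, 3.23 and 2.48 FPKM. Their calls under this filter therefore carry no added support. With no filter SLC27A2, ACOX2 and EHHADH were called higher (1.04% and 0.0795%), and with scaling by library totals SLC27A2 and ACOX2 (1.45% and 0.101%). No member was called without LPS1, LPS2, LPS3, LR1_2 or LR4, where no gene of the table was called either.

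In the other genes of these pathways, 80 of 102 named were measured. FABP1, the fatty acid binding protein of liver and enterocytes, was the 1 that rose and none fell (edgeR's quasi-likelihood test). Among all tested genes 0.974% were called higher and 0.0819% lower. The 80 genes had a median log2 fold change of 0.45, against -0.14 over all tested genes. Of the 80, 56 were fitted above 0 (43.5% of all tested genes) and 24 below. The groups were separated upward in 23 and downward in 5 (12.3% and 7.1% of all tested genes). The 5 were ACSBG2, ABCD2, FABP7, SCD and ME1. FABP1 had 363.8, 124 and 289.1 FPKM in LR1_2, LR3 and LR4, against 56.1, 30.6 and 39.1 in LPS1, LPS2 and LPS3 (2.46 ± 0.44, adjusted p = 0.0422). It repeated the library order of SLC27A2. Without LR3, 20 of the 80 were called higher and 7 lower (4.83% and 3.82% of all tested genes).

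By role, the gene of smallest p was given for each of the other groups, and none of these passed. ACSL5, an acyl-CoA synthetase of enterocyte mitochondria, had 51.9, 15.2 and 51.7 FPKM in LR1_2, LR3 and LR4, against 8.80, 8.74 and 5.53 in the LPS libraries (2.20 ± 0.44, adjusted p = 0.0574). Beside the overlapping ACSL1, its ratio to ACSL1 was 1.27, 0.116 and 1.93 in LR1_2, LR3 and LR4, against 0.193, 0.0499 and 0.0671 in the LPS libraries. In this ratio LR3 lay inside the LPS range. SLC22A5, the carnitine importer, was at 12.3 ± 4.43 FPKM in LPS+LR21 and 3.45 ± 1.57 in LPS (SD, n = 3 each; log2 fold change 1.67 ± 0.41), and the nuclear receptor corepressor gene NRIP1 at 6.33 ± 1.41 and 2.96 ± 0.106 (0.94 ± 0.27). Sterol carrier protein SCP2, which includes a peroxisomal thiolase, averaged 64.3 ± 22.9 FPKM in LPS+LR21 and 23.0 ± 0.198 in LPS (1.33 ± 0.32), and ACAD11, a dehydrogenase of long and very long chains, 8.89 ± 3.66 and 2.78 ± 0.779 (1.53 ± 0.38). BDH2, a hydroxybutyrate dehydrogenase of the cytosol, overlapped between the groups, at 23.6 ± 6.37 FPKM in LPS+LR21 and 12.0 ± 5.50 in LPS. ME1, which makes NADPH for fatty acid synthesis, ran the other way, with 24.4 ± 7.95 FPKM in LPS+LR21 and 52.5 ± 12.6 in LPS (-1.21 ± 0.35, adjusted p = 0.159). Fatty acid synthesis genes had a median of -0.21 over 11 genes, close to the -0.14 of all tested genes. Of the 11, 5 were fitted above 0, up to 1.39 for ELOVL6, and 6 below. The median was 0.83 over 17 other peroxisomal genes and 0.62 over 10 other genes of the mitochondrial spiral and acyl-CoA breakdown.

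The deposited table also annotates genes to pathways, which gave lists wider than the names above. With the members left out, 47 genes annotated to PPAR signalling had a median of 0.43. Of the 47, 3 were called higher and none lower (0.974% and 0.0819% of all tested genes). Their groups were separated upward in 13 and downward in 6 (12.3% and 7.1% of all tested genes). The 68 tested peroxisome genes had a median of 0.60, with 2 called higher and 1 lower, and their groups were separated upward in 30 and downward in 2. The 15 genes of fatty acid degradation had a median of 0.43 with none called, and were separated upward in 4 and downward in 1. The 97 tested genes of oxidative phosphorylation had a median of 0.49 with none called, and their groups were separated upward in 58 and downward in 5. These lists were taken after values had been seen.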

How the data were processed

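Libraries were made from polyadenylated RNA, per the labels' protocols. Tools listed, without roles, in the submitters' processing notes are StringTie 1.3.4d, HISAT2 2.0.4, cutadapt 1.9 and edgeR. Genome build and strand handling are not given in the sources used here. Per the file headers, the authors deposited, per gene and library, a raw read count and its FPKM. LPS columns were matched by group and number. The LPS+LR21 count columns were used as 3 replicates of their group, and the 3 FPKM columns of that group were not used. FPKM was recomputed for all libraries from counts, column totals and the lengths implied by the LPS columns. For 9889 genes with at least 100 counts in each LPS library, the lengths implied by LPS2 and LPS3 were divided by that implied by LPS1. Of these ratios 99.4% lay within 1% of the median over genes for their library.

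The 20745 genes kept by filterByExpr were scaled with TMM (factors 0.928 to 1.19). Whether groups overlapped was judged on levels scaled by column totals, without these factors. LR4 had the highest factor, so separations by a small margin can depend on this scaling. The groups, with no covariate, were compared by glmQLFTest after glmQLFit in edgeR 4.0.16 under R 4.3.3 (two-sided, Benjamini-Hochberg over all tested genes, threshold 0.05). Standard errors are the fold change over the square root of F. Members, gene lists and the naming rule were chosen with earlier results of these data known. The rule gave values by library for the PPAR genes, called members, and the most abundant and most changed member of each role, and, among other pathway genes, those called and the smallest p of each role. Values by library of the remaining members were added after they had been seen. Libraries are not stated to come from separate birds, so p-values measure the spread between libraries, which may be technical. No 2 libraries agreed within sampling noise (lowest chi-square per degree of freedom 97.1). Promoter and protein sequences were not analysed here. Alternatives were DESeq2 1.42.0, limma-voom (limma 3.58.1), other scalings, other filters and leaving out each library.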

Additional observations from a re-analysis of the deposited data

How the results depend on the processing

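The members' median log2 fold change stayed between 0.56 and 0.92 and the number fitted above 0 between 22 and 25 of 30 over the 13 alternatives, except 21 of 28 with the 5 FPKM filter. Scaling shifted the median of all tested genes to 0.02 with library totals and -0.24 with upper-quartile factors, against -0.14 with TMM. The members' median exceeded it by 0.81 in both and by 0.84 with TMM. Over all settings this excess was smallest with the 5 FPKM filter, at 0.65, where the median of all tested genes was 0.03. It was largest without LR4, at 1.11. Calls depended on the setting far more than fold changes. Members called higher numbered 1 in the main test, 8 with DESeq2, 2 with library totals, 11 with library quality weights, 5 at a mean of at least 5 FPKM, 3 with no filter, 0 with upper-quartile factors and 0 to 8 on leaving out 1 library. Members called lower numbered 2 with library quality weights and 0 to 2 on leaving out 1 library. Other pathway genes called higher numbered 15, 3, 17, 6, 2 and 0 in those settings and 0 to 20 on leaving out 1 library, and those called lower 5 with DESeq2, 7 with weights, 1 at 5 FPKM and 0 to 7. Over all genes, DESeq2 called 1002 higher and 359 lower, weights 1060 and 896, the 5 FPKM filter 400 and 123, upper-quartile factors 0 and 0, and leaving out 1 library 0 to 1086 and 0 to 859, the highest without LR3. With 2 libraries left in a group, the spread is pooled over the remaining libraries.

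Of 388 values of single members under an alternative, 13 changed sign, in 3 members fitted near 0. ACSL3 was -0.07 with upper-quartile factors and -0.12 to 0.29 on leaving out 1 library, CPT1A -0.29 to 0.20 on leaving out 1 library, and ECI2 0.01 with DESeq2, 0.01 with its size factors in edgeR, 0.12 with library totals, 0.07 with weights and -0.21 to 0.22 on leaving out 1 library. The cause was not tested. No paired analysis was possible because the numbers in the LPS+LR21 column names are not those of the sample labels.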
